A study of Mus musculus with 4 samples.

Results

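Genes switched on by the tumour suppressor p53, other than the gene of the cell cycle inhibitor p21, were followed in C3H10T1/2 cells given BMP3. The list held 10 genes chosen by symbol: Mdm2, Ccng1, Trp53inp1, Sesn1, Sesn2, Phlda3, Zmat3, Btg2, Bbc3 and Bax. Probe sets annotated to a single one of these symbols were taken, which gave 19 probe sets for 9 of the genes, out of 18193 genes measured. Bax had no probe set of its own in the annotation used and was not analysed here. C3H10T1/2 is an established mouse line of mesenchymal stem cells, and BMP3 is a secreted ligand related to TGF-beta. Control cultures were not treated, and the other cultures were exposed for 6 hours to human BMP3, a recombinant protein, at 100 ng/ml. Each group had 2 arrays, called biological replicates by the labels, and no genetic change is named for either group. The labels do not say that replicates came from separate cultures, so p-values measure the spread between these arrays.

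The transcription factor p53 is kept scarce in unstressed cells by the ubiquitin ligase Mdm2, whose gene is itself a p53 target, which closes a negative feedback loop. When DNA damage or other stress stabilises p53, its targets slow the cell cycle, damp growth signalling through AKT and mTORC1, alter RNA processing and decay, and can start apoptosis through the BCL2 family. In growing fibroblast-like cells many of these genes have a basal transcript level, and several also answer to other stress pathways.

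The p53 binding element is built from a pair of copies of a decamer, and the decamer consensus was searched in promoter windows to show where it lies near members' starts. The windows ran from 250 bases before to 50 bases after a RefSeq transcript start (build GRCm38.p6). The consensus is its own reverse complement, so a match counts for both strands. Of the 10 genes, 8 had a window, with 11 windows in all, and 4 windows held a match. Over all 32851 windows of the table, 8.36% held one. The matches of the 3 genes with array values are shown with 20 flanking bases on each side, read along the gene's strand, with the decamer in capitals.
Mdm2 (chr10:117710915-117710964, minus strand): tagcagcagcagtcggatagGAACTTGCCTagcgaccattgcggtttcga
Ccng1 (chr11:40755442-40755491, minus strand): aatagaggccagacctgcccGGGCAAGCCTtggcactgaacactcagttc
Sesn1 (chr10:41887246-41887295, plus strand): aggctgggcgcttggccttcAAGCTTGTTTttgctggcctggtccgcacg
The decamer began 186 bases before the start in Mdm2, 185 in Ccng1 and 173 in Sesn1. The Sesn1 match belonged to 1 of its 2 windows, at the start further along the gene. The fourth match was in the Bax window. The windows of Btg2, Phlda3, Sesn2 and Bbc3 held no match, and a match or its absence in so short a window says nothing of p53 binding.

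The comparison asked which transcripts differ after BMP3. Among these p53 targets, Mdm2, Sesn2, Phlda3 and Zmat3 had higher values in both BMP3 arrays than in both control arrays, by 1.21-fold to 1.46-fold. Sesn1 had lower values in both, by 1.66-fold. In such bulk RNA, fewer cells with a transcript and less of it per cell cannot be told apart. Values of Ccng1, Btg2, Trp53inp1 and Bbc3 overlapped between the groups, with mean log2 differences between -0.06 and 0.05. By limma, 0 of the 9 genes had an adjusted p under 0.05 in either direction (the smallest was 0.355), and over all genes 0% did. At an unadjusted p under 0.05 there were 3 members, Phlda3, Sesn2 and Zmat3, all higher, against 9.79% of all genes. Both their number and the genes changed with the array left out, in fits that leave 1 array in a group. In those fits Sesn1 ran from -1.03 to -0.44 and Trp53inp1 from -0.21 to 0.088. Of the 9185 genes averaging a log2 value of 6 or more, as every measured member did, 9.87% were higher and 8.32% lower at that threshold. When a 1.5-fold difference was required too, which is called the looser threshold here, 0 members were left, against 1.18% of all genes higher and 1.65% lower. Groups did not overlap at 4 members in the higher and 1 in the lower direction. Among the genes of that brightness the shares were 26.1% higher and 21.7% lower, so groups that did not overlap were common on these arrays. The count of such members was 3 when the probe sets of each gene were averaged, where the share over all genes was not counted. With an array left out, 1 array is set against 2 and groups part more easily, so those counts are not compared. An exact permutation test of 2 arrays against 2 cannot give a two-sided p below 0.333.

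Values are log2 intensities at the brightest probe set of each gene, and differences are BMP3 minus control ± the standard error of the limma fit. Median log2 differences were 0.05 for the 9 members (6 higher, 3 lower) and 0.02 for the genes of that brightness (4899 higher, 4286 lower). The members' median ran from -0.01 without control replicate 2 to 0.33 without control replicate 1, and was 0.25 and 0.17 when BMP3 replicate 1 or 2, in that order, was left out. It was thus negative, and near 0, only without control replicate 2, and its size changed with the array left out.

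**Figure D1:**
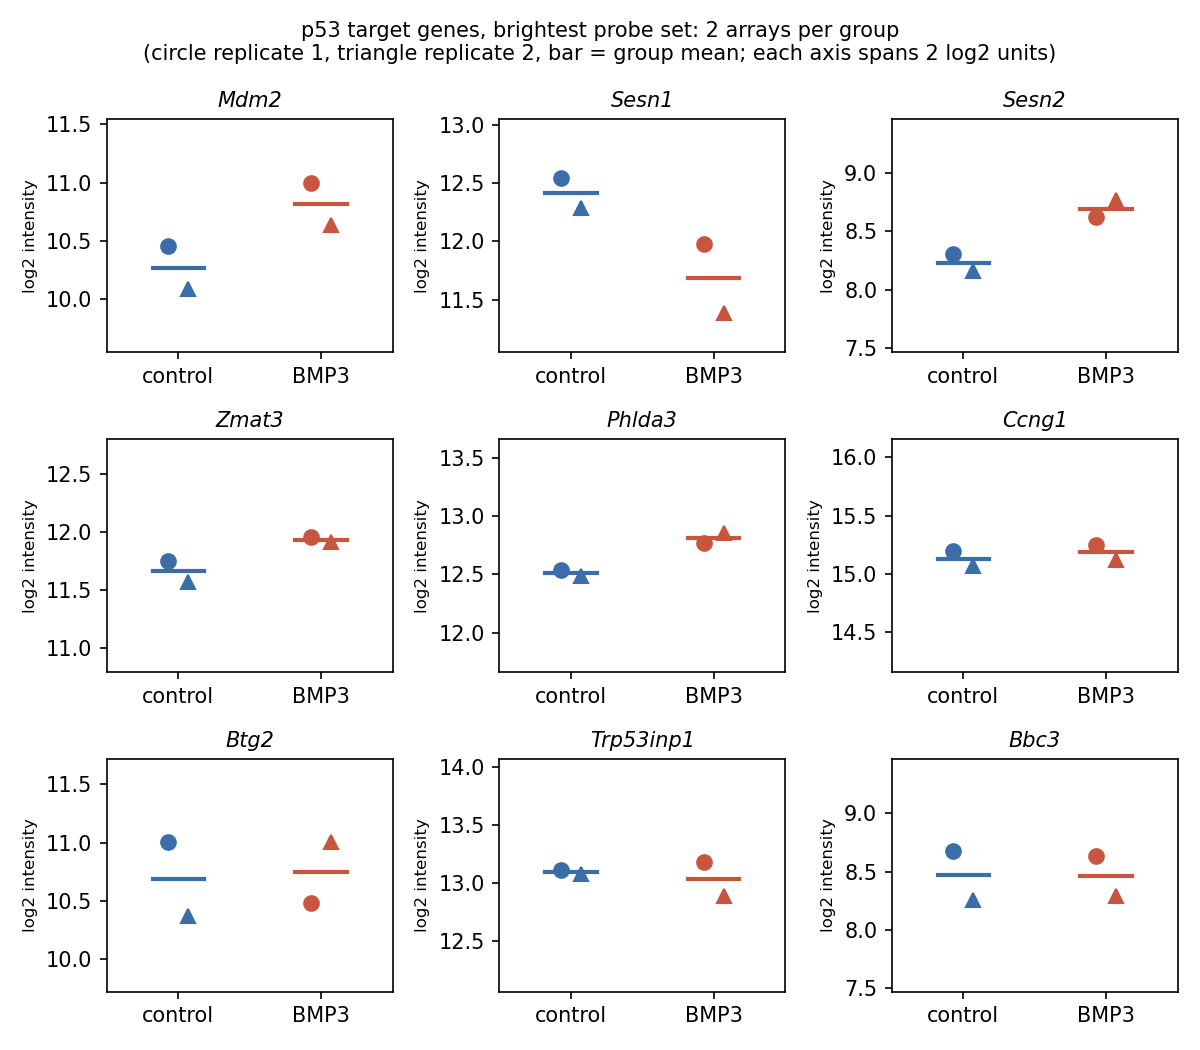
Log2 intensity of each of the 9 measured genes at its brightest probe set (vertical axis, 2 log2 units in every panel) for control and BMP3 arrays. Circles are replicate 1, triangles replicate 2, and bars the mean of 2 arrays. Both BMP3 points lie above both control points for Mdm2, Sesn2, Zmat3 and Phlda3 and below them for Sesn1, and the points overlap for the other 4 genes.

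Of the genes that feed back on p53, Mdm2 had the largest difference. Its brightest probe set (1423605_a_at) read 10.46 and 10.09 in control replicates 1 and 2 and 11.00 and 10.63 in BMP3 replicates 1 and 2. Both BMP3 arrays were above both controls, and in each group replicate 1 was the higher array. The means were 10.27 ± 0.26 and 10.82 ± 0.26 (SD, n = 2 arrays each), a difference of 0.55 ± 0.21 with a 95% confidence interval of -0.10 to 1.19 (limma adjusted p = 0.678). Leaving out control replicate 2 or BMP3 replicate 1 gave 0.36 in either case. The next brightest Mdm2 probe set (1427718_a_at) went the other way, at 9.25 and 9.13 on control arrays and 9.00 and 8.96 on BMP3 arrays. There both BMP3 arrays were below both controls, with a difference of -0.21 ± 0.06 (limma adjusted p = 0.543). Its remaining probe set averaged 2.72, below the median of each array, and is not read. The direction of Mdm2 thus depended on which probe set was read, and the mean of its probe sets gave 0.10.

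Ccng1, which encodes cyclin G1, a partner of the phosphatase that acts on Mdm2, was close to the upper end of the scale. It read 15.19 and 15.07 on control arrays and 15.25 and 15.12 on BMP3 arrays, which overlap, with a difference of 0.05 and an interval of -0.19 to 0.30. Its other probe sets lay on either side of this value. The one averaging 11.60 had 0.29 ± 0.15, with both BMP3 arrays higher, and the one averaging 11.28 had -0.20 ± 0.11, with both BMP3 arrays lower. Trp53inp1, a stress protein that promotes p53 activity and autophagy, read 13.11 and 13.08 on control arrays and 13.18 and 12.89 on BMP3 arrays. The control values lay between the BMP3 values, and the difference was -0.06 ± 0.12. Its interval of -0.44 to 0.32 leaves room for a difference of either sign.

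The sestrin genes, whose products hold back mTORC1 when amino acids are short or cells are stressed, had differences of opposite sign. Sesn1 (1438931_s_at) read 12.54 and 12.29 on control arrays and 11.98 and 11.39 on BMP3 arrays. Both BMP3 arrays were lower, and the lowest value was that of BMP3 replicate 2. The means were 12.42 ± 0.18 and 11.68 ± 0.42 (SD, n = 2 arrays each), a difference of -0.74 ± 0.26 with an interval of -1.53 to 0.06 (limma adjusted p = 0.633). The difference was -0.44 with BMP3 replicate 2 left out. With BMP3 replicate 1 left out it was -1.03 and passed the looser threshold, as it also did with a variance prior that trends on the mean or with dim probe sets left out. Its other bright probe sets had 0.03 ± 0.44 and -0.49 ± 0.45, and in both of them the groups overlapped. They read 10.97 and 10.53 in BMP3 replicate 1 and 9.86 and 9.40 in BMP3 replicate 2, so the BMP3 arrays themselves disagreed. Control values of these probe sets stayed between 10.37 and 10.53.

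Sesn2 (1451599_at) read 8.30 and 8.16 on control arrays and 8.62 and 8.77 on BMP3 arrays. Both BMP3 arrays were higher, and the difference of 0.47 ± 0.09 was larger than the SD of either group (0.10 and 0.10, n = 2 arrays each). Its interval was 0.20 to 0.74, with a limma adjusted p of 0.388. The dimmer probe set of Sesn2, averaging 7.35, had 0.09 ± 0.13, and its groups overlapped. The difference between the sestrins was not tested.

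Phlda3, a small protein with a pleckstrin homology domain that competes with AKT for membrane lipids, had the smallest p of the members. Its only probe set (1449002_at) read 12.53 and 12.48 on control arrays and 12.77 and 12.86 on BMP3 arrays. Arrays of a group lay close together and the groups were apart, with SDs of 0.04 and 0.06 (n = 2 arrays each). The difference was 0.30 ± 0.05, a fold of 1.24, with an interval of 0.14 to 0.47 (limma adjusted p = 0.355). With any 1 array left out it stayed between 0.26 and 0.35.

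Zmat3, a zinc finger protein that binds RNA and acts on splicing and transcript stability, also had a single probe set (1449353_at). It read 11.75 and 11.57 on control arrays and 11.95 and 11.91 on BMP3 arrays. Both BMP3 arrays were higher, by 0.27 ± 0.08 on average, with an interval of 0.02 to 0.52 (limma adjusted p = 0.552). With any 1 array left out the difference ran from 0.18, without control replicate 2, to 0.36, without control replicate 1.

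Btg2, an antiproliferative protein that brings the CCR4-NOT deadenylase to transcripts, differed more between arrays of a group than between groups. Its brightest probe set (1416250_at) read 11.01 and 10.37 on control arrays and 10.48 and 11.01 on BMP3 arrays, so the highest values of the groups were alike and the difference was 0.05 ± 0.33. The other probe set read 9.59 and 8.85 on control arrays and 10.06 and 9.35 on BMP3 arrays, with a difference of 0.49 ± 0.41 and overlapping groups. On that probe set replicate 1 was the higher array of both groups, whereas on the brightest one replicate 1 was the higher array in control and the lower in BMP3.

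Bbc3, which encodes the BH3-only protein PUMA, was the only measured member that acts directly in apoptosis. It read 8.68 and 8.26 on control arrays and 8.64 and 8.29 on BMP3 arrays (1423315_at). The BMP3 values lay inside the range of the control values, and the difference was -0.01 ± 0.22. The interval of -0.68 to 0.67 is wide, so 2 arrays per group do not resolve differences inside it.

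**Figure D2:**
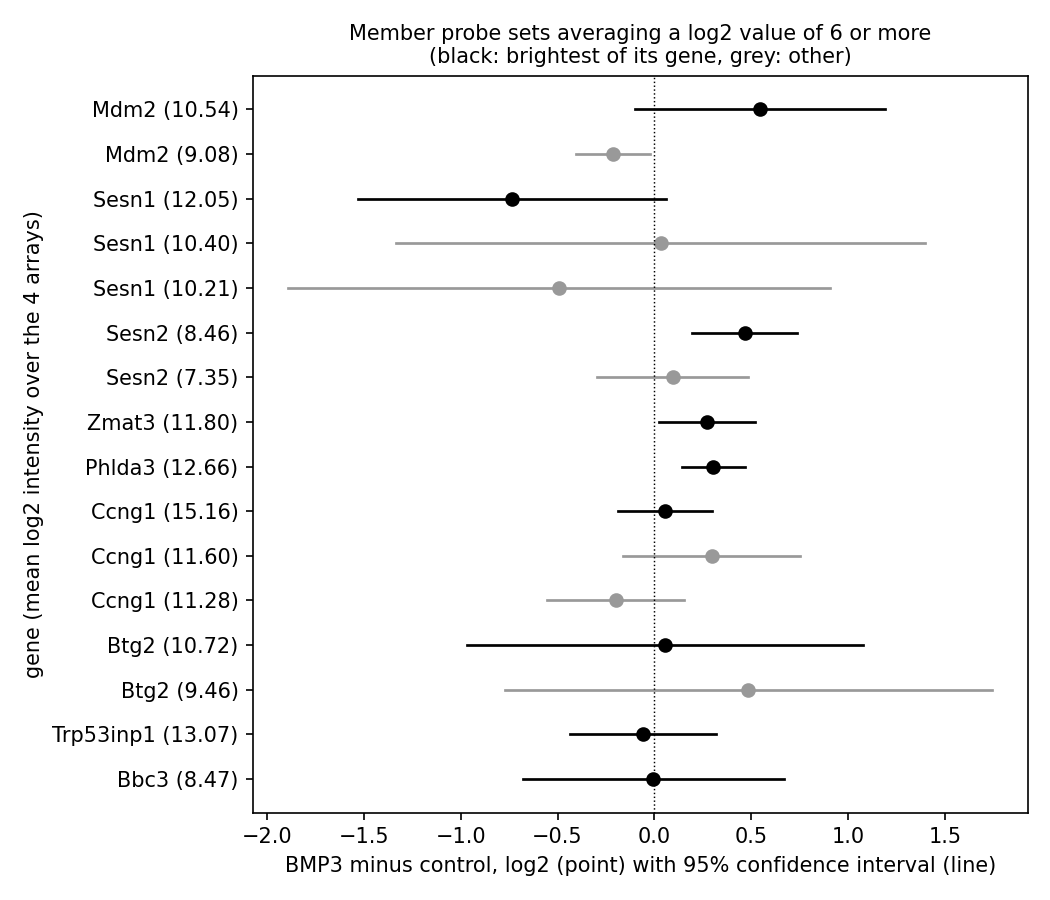
BMP3 minus control on the log2 scale (horizontal axis) for the 16 member probe sets with a mean of at least 6, as points with 95% confidence intervals. Black marks the brightest probe set of each gene and grey the others, with the mean level in brackets. Mdm2 has 0.55 at one probe set and -0.21 at the other, and the 3 probe sets of Ccng1 and of Sesn1 also fall on both sides of 0.

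Other genes of the p53 pathway were taken from lists of 107 genes by role, read at the brightest probe set. Among 32 measured further p53 targets, 0 passed the adjusted threshold, and 4 higher and 0 lower passed the looser threshold of unadjusted p and 1.5-fold (1.18% and 1.65% of all genes). The 23 that averaged 6 or more had 16 higher, 7 lower and a median of 0.20. Of the 4 past the looser threshold, Tnfrsf10b stayed under 6 on every array, averaging 4.71. Aen, another of them, had 3 bright probe sets running from 0.06 to 1.07. Cdkn1a, the gene of p21, read 13.56 and 12.97 on control arrays and 14.04 and 13.64 on BMP3 arrays. Both BMP3 arrays were higher, by 0.57 ± 0.28, with an interval of -0.30 to 1.45 (limma adjusted p = 0.808). The other probe set of Cdkn1a had 0.42. As in Mdm2, replicate 1 was the higher array of each group.

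Ddit4, a stress-induced inhibitor of mTORC1, read 10.26 and 10.33 on control arrays and 11.05 and 11.10 on BMP3 arrays, a difference of 0.78 ± 0.05 (limma adjusted p = 0.213). Polk, a polymerase that copies past DNA damage, had 0.72 ± 0.07 at its brightest probe set and 0.07 at its other one. Ptpn14, a phosphatase gene, had 0.25 ± 0.04, and its 3 probe sets ran from 0.25 to 0.68. These were the 3 of smallest p in the list, and each was higher in both BMP3 arrays.

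Among 17 measured regulators of p53, 6 were higher and 11 lower, with 0 past the adjusted threshold. The 15 that averaged 6 or more had a median of -0.15. Past the looser threshold 1 was higher and 1 lower. Cdkn2a, a locus that also encodes the Mdm2 inhibitor ARF, read 8.89 and 8.77 on control arrays and 9.61 and 9.47 on BMP3 arrays, a difference of 0.72 ± 0.08 (limma adjusted p = 0.269). The files do not show which of the transcripts of that locus the probe set reads. Atr, a kinase of the DNA damage response, had -0.40 ± 0.06 and Cop1, a ubiquitin ligase for p53, 0.22 ± 0.04. A second bright probe set of Atr had -1.23. The related kinase Atm, named after its values were seen, had -0.71 ± 0.18 and was the member of this list past the looser threshold in the lower direction. The p53 gene itself was not analysed here.

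Paralogs of the members went both ways. Of 16 measured, 4 were higher and 12 lower (4 and 9 of the 13 that averaged 6 or more), 0 passed the adjusted threshold, and 1 passed the looser one, in the lower direction. Zmat1 read 9.37 and 9.24 on control arrays and 8.57 and 8.67 on BMP3 arrays, a difference of -0.68 ± 0.08 (limma adjusted p = 0.271), against 0.27 for Zmat3. Trp53inp2 had 0.52 ± 0.09, against -0.06 for Trp53inp1. Bak1, a relative of Bax, read 9.02 and 9.23 on control arrays and 9.53 and 9.59 on BMP3 arrays, a difference of 0.43 ± 0.09. The following paralogs were named after their values were seen. Mdm4, which binds p53 together with Mdm2, read 10.91 and 10.83 on control arrays and 10.50 and 10.18 on BMP3 arrays. Both BMP3 arrays were lower, by -0.53 ± 0.14 (limma adjusted p = 0.49), where the brightest probe set of Mdm2 was higher. A second bright probe set of Mdm4 had -0.15. Ccng2 had -0.58 ± 0.31, and -1.72 at its other bright probe set. Sesn3 had -0.14 ± 0.43, with overlapping groups, and its other bright probe set had 0.32. None of these differences between a member and its paralog was tested.

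**Figure D3:**
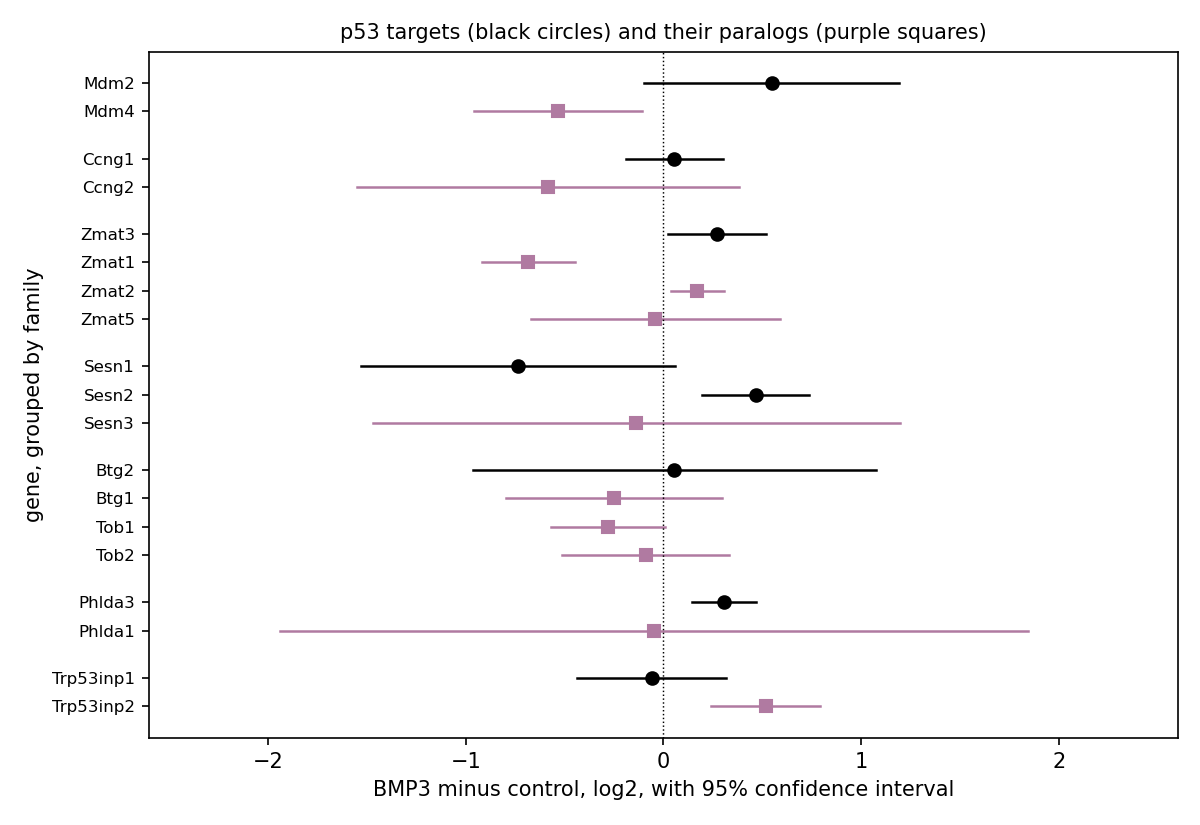
BMP3 minus control on the log2 scale with 95% confidence intervals for members (black circles) and their paralogs averaging 6 or more (purple squares), grouped by family and read at the brightest probe set. Bbc3, Bak1 and Bok are not shown. Mdm2 at 0.55 stands opposite Mdm4 at -0.53, Zmat3 at 0.27 opposite Zmat1 at -0.68, and Sesn2 at 0.47 opposite Sesn1 at -0.74. The intervals of Mdm2 and Sesn1 include 0. Other bright probe sets, not shown, had -0.21 for Mdm2, -0.15 for Mdm4, 0.09 for Sesn2, and 0.03 and -0.49 for Sesn1.

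Around Bbc3 and Bax, 15 genes of the BCL2 family were measured, of which 7 were higher and 8 lower, with 0 past the adjusted or the looser threshold. The 11 that averaged 6 or more had 7 higher, 4 lower and a median of 0.08. Bid, a BH3-only activator of Bax and Bak1, read 9.17 and 9.30 on control arrays and 9.70 and 9.88 on BMP3 arrays, a difference of 0.55 ± 0.09 (limma adjusted p = 0.355). Bcl2l1, whose main product protects from apoptosis, had 0.37 ± 0.08 and Bak1 0.43 ± 0.09. Genes that promote apoptosis and genes that protect from it were thus both among those with higher values. Bmf, named after its values were seen, went the other way at -0.75 ± 0.24, with both BMP3 arrays lower. Pmaip1, the gene of the BH3-only protein NOXA, averaged 2.74, below the median of each array.

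The list of the sestrin and mTORC1 axis, which includes Sesn3 beside AMPK and mTORC1 genes, had 18 genes measured, 10 higher and 8 lower, with a median of 0.05. None passed the adjusted threshold, and 1 lower passed the looser one. Rptor, the mTORC1 scaffold, read 8.41 on both control arrays and 8.82 and 8.91 in BMP3 arrays, a difference of 0.45 ± 0.05. Tsc1, which restrains mTORC1, had -0.33 ± 0.05. The gene past the looser threshold was Prkaa2, a catalytic subunit of AMPK, which stayed under 6 on every array, with means of 4.76 (control) and 3.88 (BMP3). Of 9 measured genes around the deadenylase partners of Btg2, 6 were higher and 3 lower, with 0 past either threshold. The 3 of smallest p were Tob1 (-0.28 ± 0.09), Cnot8 (0.22 ± 0.13) and Cnot7 (-0.20 ± 0.12). The direction of Cnot7 depended on the probe set, with 3 bright ones running from -0.68 to 0.08, and the other bright probe set of Cnot8 had 0.04.

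**Figure D4:**
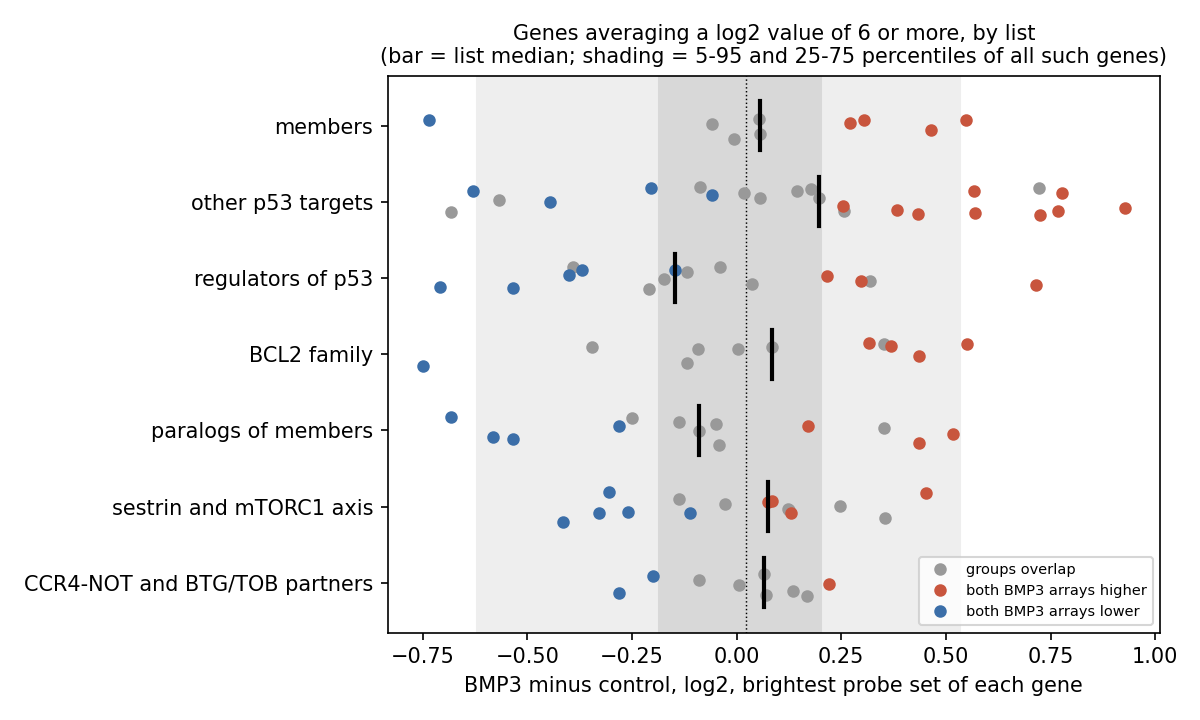
BMP3 minus control on the log2 scale for genes averaging 6 or more, by list, with each point 1 gene, red where both BMP3 arrays were higher, blue where both were lower and grey where groups overlapped. Bars are list medians, and shading gives the central ranges of all 9185 genes of that brightness, from -0.62 to 0.53 for the wider one. The members' median of 0.05 lies inside the inner range, and Sesn1 and Mdm2 lie outside the wider one.

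Arrays had median log2 values of 3.31 to 3.40, and 37.7% to 38.6% of probe sets reached 6. Of 10 mesenchymal markers 9 averaged 6 or more, and Nt5e did not, at 2.54. The markers had 4 higher and 6 lower, with 0 past the adjusted threshold, and Thy1 (0.73 ± 0.10) and Cd44 (0.64 ± 0.19) were past the looser one. Eng had 0.47 ± 0.15, with both BMP3 arrays higher. Among the lower markers, Pdgfra had -0.73 ± 0.52 with overlapping groups, and -0.32 at its other bright probe set. Pdgfrb had -0.30 ± 0.20, but 0.32 at its other probe set. Vim had -0.10 ± 0.05 with both BMP3 arrays lower, and its 3 probe sets ran from -0.10 to 0.11. The summed level of the mesenchymal markers was 124.4 and 123.6 on control arrays against 125.3 and 124.1 on BMP3 arrays. Defining markers of blood cells (0 of 6 at 6 or more) were dim, as were those of endothelial cells other than Tek (1 of 6). Of 7 epithelial markers only Epcam reached 6, at 9.51. Summed log2 levels of the blood cell markers were 18.77 and 18.83 on control arrays against 18.94 and 19.73 on BMP3 arrays, and those of the epithelial markers 28.80 and 28.71 against 28.85 and 28.59. The endothelial sum was 19.36 and 19.22 against 16.49 and 16.74, and Tek read 8.74 and 8.52 against 5.78 and 6.25. Control probe sets moved with the treatment beside the members' differences. The poly-A spike-in Dap read 10.39 and 9.86 on control arrays and 9.13 and 8.85 on BMP3 arrays, and 18S ribosomal RNA 11.41 and 10.50 against 8.99 and 9.90. Hybridization spike-ins read 11.57 and 11.61 against 11.48 and 11.62. The part of these in the members' differences was not tested.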

How the data were processed

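Per the labels' protocols, RNA was labelled with biotin for Affymetrix 3' arrays. From their range, the deposited values were taken to be log2 intensities. Neither the scale nor the background correction, normalization and probe summary is given in the sources used. The submitters' processing notes name Partek. Another log base would change every fold.

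After 64 control probe sets were left out, 45037 were fitted with limma 3.58.1 (lmFit and eBayes) in R 4.3.3, with no covariate and Benjamini-Hochberg adjustment over all of them. The annotation gave 1 symbol to 34945 probe sets, several to 932 and none to 9160. Each gene was read at the probe set of highest mean over the 4 arrays. The looser threshold was an unadjusted p under 0.05 together with a 1.5-fold difference.

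All members were named, with Cdkn1a, and from each pathway list the 3 genes of smallest p. Markers and other genes outside this rule were named after their values were seen. Members and lists were chosen with earlier results of these data known. The fit was tested on simulated data with known changes. The simulated noise was independent between arrays, so the test does not cover arrays that deviate together. With 2 arrays per group, their number limits the precision.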

Additional observations from a re-analysis of the deposited data

How the results depend on the processing

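In the 16 alternatives run for members (a replicate block, each of the 4 arrays left out, 3 normalizations, 2 filters on dim probe sets, a linear offset of 16, 3 variance settings and 2 choices of probe set), 0 members passed an adjusted p of 0.05, with the smallest adjusted p at 0.143. Over all probe sets 0 passed in the 14 fits where this was counted. Mdm2, Sesn2, Zmat3 and Phlda3 stayed positive and Sesn1 negative in all 16. The replicate block, the 3 variance settings and the 2 filters leave each difference as it was, so they could not turn a sign. Apart from the 2 choices of probe set, moreover, the 16 alternatives read the same brightest probe sets. The second bright probe set of Mdm2 (-0.21) and that of Sesn1 at 0.03 were not read by themselves in any of them. The lower member past the looser threshold was 1 in place of 0 (Sesn1) with the replicate block, with a prior trending on the mean, with probe sets averaging 6 or more and with probe sets above the median level, and 0 to 1 with an array left out. At an unadjusted p under 0.05 the block gave 5 members (Mdm2 and Sesn1 beside the 3 found without it). For this and the other alternatives the share over all genes at that threshold was not counted. Other alternatives with all 4 arrays gave 2 or 3, but not always the same genes. Sesn2 was in each of them, and Sesn1 came in under both filters and the trending prior. Zmat3 was absent from those fits, from the linear offset and from the linear model without a variance prior. Phlda3 was absent with probe sets averaging 6 or more. Arrays of the same number deviated together across brighter probe sets (correlation 0.60), but the labels do not say that the number marks a shared culture or day, and only 2 numbers exist.

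With an array left out the members' median ran from -0.009 to 0.33, and the number of members whose groups did not overlap from 6 to 8, against 5. Averaging the probe sets of a gene gave 3 members whose groups did not overlap, against 5, with the share over all genes not counted. It brought the difference of Sesn1 to -0.29, lowered that of Mdm2 to 0.10 and of Sesn2 to 0.28, and raised that of Btg2 to 0.27. Without probe sets whose names end in _s_at or _x_at, Sesn1 had -0.49.

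Direction turned for the 4 genes near 0. With an array left out, Ccng1 ran from -0.0095 to 0.12, Btg2 from -0.26 to 0.37, Trp53inp1 from -0.21 to 0.088 and Bbc3 from -0.22 to 0.21. Bbc3 had 0.061 under quantile normalization, 0.033 with arrays centred on their medians and 0.014 under cyclic loess, and Ccng1 -0.012 under cyclic loess. The cause was not tested.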
